A study of Caenorhabditis elegans with 6 samples.

Results

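The 7 genes described here make up the dafachronic acid steroid pathway of *C. elegans*. They are the synthesis enzymes *daf-36*, *dhs-16*, *hsd-1*, and *daf-9*, the nuclear receptors *daf-12* and *nhr-8*, and the corepressor *din-1*. They were taken by gene symbol from the deposited FPKM tables of an RNA-seq comparison of worms kept with and without vitamin K2 (VK2). Of the 7 genes, 6 were listed, through 18 transcripts, and all 6 are among the 14191 genes that could be tested out of 15207 listed in both tables. *hsd-1* (WBGene00012394, chromosome I) was listed in neither table and was not analysed here.

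VK2-treated worms (libraries T1, T2, and T3) and control worms (C1, C2, and C3) were both of the wild-type strain N2. They were put on NGM plates as young adults, moved every day away from their progeny, and collected whole after 7 days at 20°C. The VK2 plates held 0.1 μM VK2 and the control plates held none. T1 and C1 are in a first table and T2, T3, C2, and C3 in a second, and FPKM is the number of fragments of a transcript scaled by its length and by the library. Nothing in the sources used here says that the 3 libraries of a group came from separate cultures, so the p-values measure only the spread between these libraries.

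Dafachronic acids are bile acid-like steroid hormones that worms make from dietary cholesterol. When they bind the nuclear receptor DAF-12, larvae grow to reproductive adults, and without them DAF-12 works with its corepressor DIN-1 to direct entry into the dauer diapause. In adults, the same hormone and receptor are known for their part in the long life of worms that lack a germline and in fat metabolism.

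Summed over all transcripts, FPKM came to 654910 in T1 and 686279 in C1, but to between 369349 and 382777 in the VK2 libraries and 373517 and 396004 in the controls of the second table. Levels were therefore compared only within a table. Read totals per library are not given in the sources used here. Depth, and with it the precision of a single value, is therefore unknown. C3 stood apart. Its summed FPKM of germline and oocyte markers was 466, against 780 to 971 in the other libraries of its table, and that of embryo markers was 206, against 371 to 440. The germline marker *glh-1* went the other way, at 68.3 FPKM in C3 against 48.4 to 54.9, while the rest of that list was lowest in C3. The embryo marker *skn-1* was nearly level, at 68.0 against 70.2 to 76.3. Hypodermis markers summed to 832 FPKM in C3, against 440 to 490 in the others. The largest part of this was *dpy-13*, at 410 FPKM in C3 against 160 to 189 in the others. The marker *col-19* was nearly level, at 187 in C3 against 172 to 184. Over 9 marker lists, 59 of 66 genes were listed in both tables, so the tissues of a whole worm were all represented. In RNA from whole worms, fewer cells of a type and less RNA per cell cannot be told apart.

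None of the 6 genes listed passed the test between VK2-treated and control worms. By the fitted difference, *nhr-8* and *daf-12* were above 0 and *daf-36*, *dhs-16*, *daf-9*, and *din-1* were below 0. The median of the 6 was -0.09 on the log2(FPKM + 1) scale, against 0.02 over all genes tested, of which 55.1% were above 0. Tested with limma and adjusted by Benjamini-Hochberg over the whole table, each of the 6 had an adjusted p of 1.00. Limma called 0 of the 14191 genes (0%) at an adjusted p below 0.05, and the smallest adjusted p was 0.708. At an unadjusted p below 0.05 it called 507 genes (3.57%), with 0 of the 6 among them. An unmoderated test in its place called 0 genes after adjustment and 416 before it. *din-1* was among these 416, with an unadjusted p of 0.0076 from the unmoderated test. The fitted difference was 1.5 times or more higher in VK2 for 473 genes (3.33%) and as much lower for 238 (1.68%), with 0 of the 6 in either direction. Whichever library was left out, 0 of the 6 passed the test. *nhr-8* reached 1.5 times without T2, T3, or C2 (0.62, 0.59, and 0.62) and was just under it without C3 (0.58), and *daf-9* reached it without C2, at -0.75. This scale understates the change of a gene with a low FPKM.

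**Figure D1:**
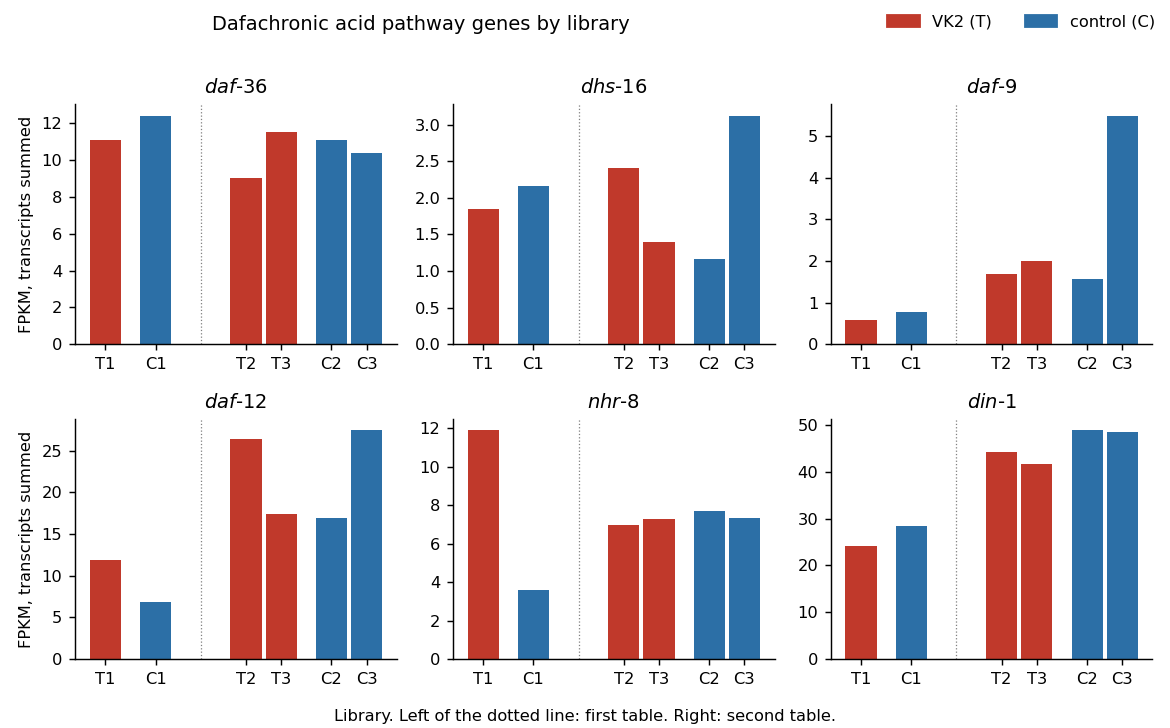
FPKM of each gene, with its transcripts summed, in the VK2 libraries (T, red) and the control libraries (C, blue), one bar per library. The first table is left of the dotted line and the second right of it. For *din-1*, both VK2 bars of the second table (44.2 and 41.7 FPKM) stand below both control bars (48.8 and 48.5 FPKM), and for *nhr-8* the VK2 bar is far above the control bar in the first table (11.9 and 3.57 FPKM), while both VK2 bars are slightly below both control bars in the second.

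The enzymes were at or below control levels in the fit, and each had VK2 and control libraries that overlapped in the second table. DAF-36 is a Rieske-type oxygenase that carries out the first step from cholesterol. *daf-36* (WBGene00007536) lies on the minus strand of chromosome V between 10223513 and 10225710 (WBcel235). It had 11.1 FPKM in T1 against 12.4 in C1, and 9.01 in T2 and 11.5 in T3 against 11.1 in C2 and 10.4 in C3. T3 was the highest library of the second table and T2 the lowest, so the VK2 libraries lay on both sides of the controls. The fitted difference was -0.09 (SE 0.17), with a 95% interval from -0.49 to 0.31. This interval runs from a fold of 0.710 to 1.24 on the scale of FPKM + 1, the narrowest range of the enzymes.

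DHS-16 is a short-chain dehydrogenase that acts on the sterol ring between DAF-36 and DAF-9. *dhs-16* (WBGene00000979, chromosome V) had 1.85 FPKM in T1 against 2.16 in C1, and 2.40 in T2 and 1.40 in T3 against 1.17 in C2 and 3.12 in C3. Both VK2 libraries fell between the controls in the second table. The difference was -0.09 (SE 0.29, 95% interval -0.79 to 0.60), and it changed sign without T3, to 0.04, and without C3, to 0.16.

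DAF-9 is the cytochrome P450 that completes the hormone. Its sites of production in the worm are the neuroendocrine XXX cells of the head, the hypodermis, and the spermatheca. *daf-9* (WBGene00000905, chromosome X) was listed through the transcript T13C5.1a alone. It had 0.588 FPKM in T1 against 0.774 in C1, and 1.70 in T2 and 1.99 in T3 against 1.56 in C2 and 5.49 in C3. C3 was the only library that stood far from the rest. The fitted difference of -0.40 (SE 0.35, 95% interval -1.24 to 0.44) was 0.02 without C3. In C3 the sum of the hypodermis markers was high and that of the germline markers low. The part of these tissues in the *daf-9* value was not tested. With C2 left out instead, the fitted difference was -0.75.

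*daf-12* encodes the receptor itself, a nuclear receptor related to the vitamin D receptor of vertebrates. The gene (WBGene00000908, chromosome X) had 11.8 FPKM in T1 against 6.87 in C1, and 26.4 in T2 and 17.4 in T3 against 16.9 in C2 and 27.4 in C3. VK2 was higher in the first table, whereas in the second both VK2 libraries fell between the controls. The log2 difference was accordingly 0.71 in the first table and -0.01 in the second. Fitted over both it was 0.23 (SE 0.27), with a 95% interval from -0.41 to 0.88 that spans a fold of 0.750 to 1.84 on the scale of FPKM + 1. The fitted difference depended on C3, the highest library of the second table. It was 0.49 without C3, 0.11 without C2, and -0.0071 without T1 or C1, and *daf-12* passed the test in none of these.

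NHR-8 is a nuclear receptor related to DAF-12 that is needed for cholesterol balance and for normal dafachronic acid production. *nhr-8* (WBGene00003607, chromosome IV) had 11.9 FPKM in T1 against 3.57 in C1. In the second table it had 6.97 in T2 and 7.30 in T3 against 7.70 in C2 and 7.32 in C3, where the 4 values lay close together with both VK2 libraries slightly below the controls. The difference was 1.49 in the first table and -0.07 in the second, and 0.45 fitted over both (SE 0.32, 95% interval -0.31 to 1.22). A test of whether the VK2 effect differed between the tables, the interaction in limma, gave -1.56 for *nhr-8* (SE 0.38), with an adjusted p of 1.00. The first table holds 1 library of each group, so the spread in this test comes from the second table alone and T1 and C1 are assumed to vary like its libraries. Of all genes, 257 (1.81%) had an unadjusted interaction p below 0.05 and 0 (0%) an adjusted one, and *nhr-8* was among the 257. The table and whatever else set these libraries apart cannot be told apart.

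DIN-1 is the homolog of the mammalian corepressor SHARP, and its short form binds DAF-12 that carries no hormone. *din-1* (WBGene00008549, chromosome II) had 24.2 FPKM in T1 against 28.4 in C1, and 44.2 in T2 and 41.7 in T3 against 48.8 in C2 and 48.5 in C3. It was the only 1 of the 6 in which every VK2 library was below every control library of its table, an arrangement found for 848 of all genes tested (5.98%). The reverse arrangement, found for 969 genes (6.83%), was seen for 0 of the 6. The difference was small, with a fitted difference of -0.19 (SE 0.13, 95% interval -0.51 to 0.12), and it lay between -0.22 and -0.17 whichever library was left out.

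**Figure D2:**
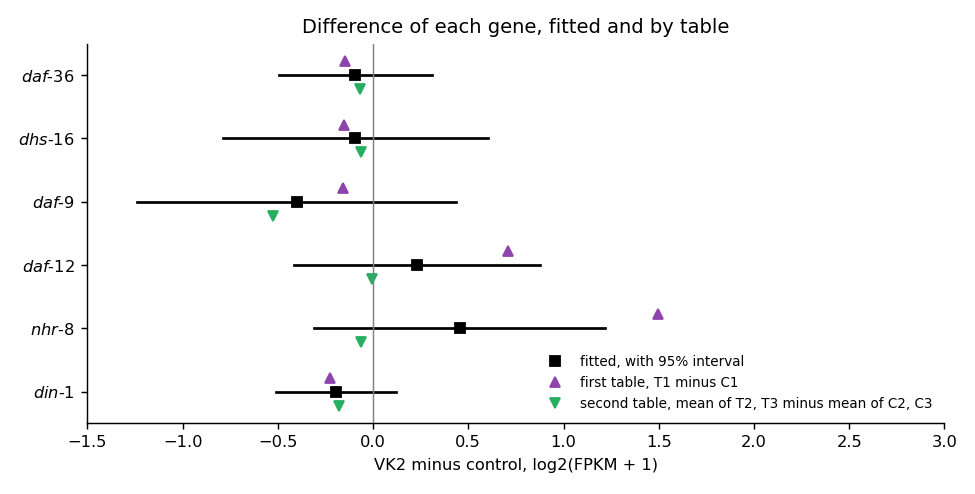
Difference between VK2-treated and control worms in log2(FPKM + 1) for each gene. Squares with lines are the fitted value and its 95% interval, triangles pointing up are T1 minus C1, and triangles pointing down are the mean of T2 and T3 minus the mean of C2 and C3. Every interval includes 0, and the tables lie farthest apart for *nhr-8* (1.49 and -0.07) and *daf-12* (0.71 and -0.01).

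The transcripts of *din-1* differed between the groups more than their sum did. The tables list 9 *din-1* transcripts on the minus strand of chromosome II. Of these, 4 were listed at exactly 0 in all 3 control libraries and were present in all 3 VK2 libraries. F07A11.6b had 2.90, 3.64, and 2.86 FPKM in T1, T2, and T3, against 0 in C1, C2, and C3. F07A11.6e had 2.69, 2.86, and 4.05 FPKM in T1, T2, and T3, against 0 in each control. The groups did not overlap for either.

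The other pair was lower, with 1.37, 2.11, and 1.37 FPKM for F07A11.6d.2 and 1.56, 1.03, and 0.848 for F07A11.6f in T1, T2, and T3, against 0 in each control. Summed, the 4 transcripts made up 35.2% of the *din-1* FPKM in T1, 21.8% in T2, and 21.9% in T3, against 0% in C1, C2, and C3. Of the 22318 transcripts listed in both tables, 6 (0.0269%) were under 0.01 FPKM in every control and at 0.5 or more in every VK2 library, so 4 of these 6 belonged to *din-1*. The other two were F25H8.5o of *dur-1* and Y46G5A.1b of *tbc-17*. The opposite pattern was found for 2 transcripts (0.00896%), F42G2.2a of F42G2.2 and T28F3.4b of *slc-17.4*. The pattern and its limits were chosen after the *din-1* values had been seen, so the counts are a description.

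A further pair of *din-1* transcripts was lower in the VK2 libraries. F07A11.6d.1 had 4.42 FPKM in T1 against 12.2 in C1, and 14.5 in T2 and 9.67 in T3 against 20.0 in C2 and 26.0 in C3. F07A11.6a had 4.45 FPKM in T1 against 11.2 in C1, and 10.2 in T2 and 10.9 in T3 against 17.1 in C2 and 14.98 in C3. For both, every VK2 library was below every control of its table. That arrangement was found for 5.98% of the genes tested and was not counted over all transcripts. The differences were -1.02 (SE 0.23, 95% interval -1.61 to -0.43) for F07A11.6d.1 and -0.76 (SE 0.21, 95% interval -1.28 to -0.24) for F07A11.6a, and both had an adjusted p of 1.00 from limma. Without the 4 transcripts at 0 in controls, the rest of *din-1* summed to 15.7 FPKM in T1 against 28.4 in C1. In the second table it summed to 34.5 in T2 and 32.6 in T3 against 48.8 in C2 and 48.5 in C3. Taking out transcripts picked for being at 0 in controls can lower only the VK2 sums. The wider gap therefore follows from that choice and is no separate result.

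**Figure D3:**
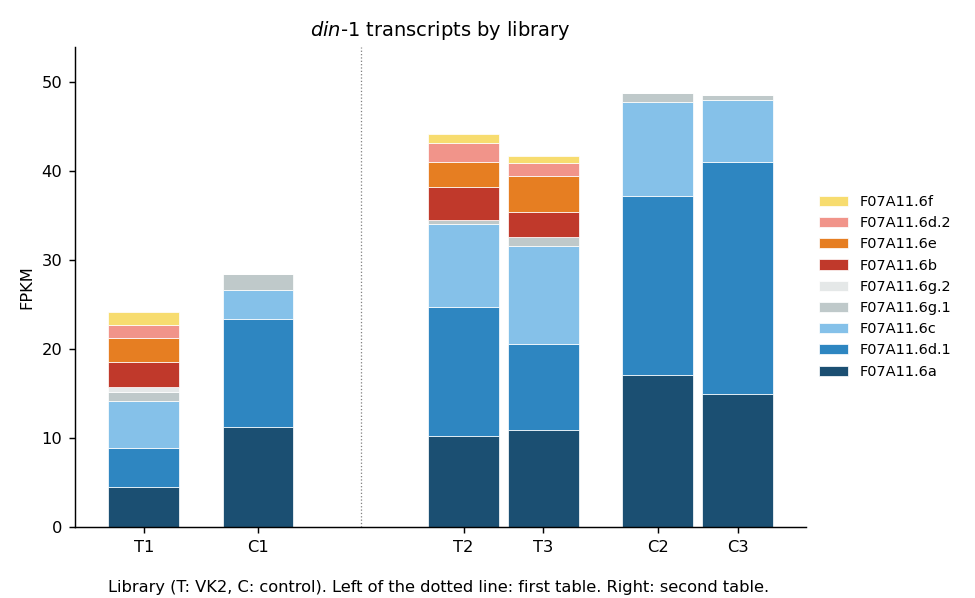
FPKM of the 9 *din-1* transcripts, stacked, in the VK2 libraries (T) and the control libraries (C), with the first table left of the dotted line and the second right of it. The 4 transcripts in red, orange, pink, and yellow sum to 8.52, 9.63, and 9.14 FPKM in T1, T2, and T3 and are at 0 in each control, while the whole bar is slightly lower in VK2.

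The remaining *din-1* transcripts did not separate the groups. F07A11.6c had 5.30 FPKM in T1 against 3.23 in C1, and 9.31 in T2 and 10.98 in T3 against 10.6 in C2 and 7.05 in C3 (fitted difference 0.32, SE 0.23). F07A11.6g.1 was between 0.483 and 1.75 FPKM in all libraries, and F07A11.6g.2 was listed in the first table alone, at 0.537 FPKM in T1 against 0.0331 in C1. By span, 5 of the 9 transcripts cover more than 15 kb and reach the 5′ part of the gene, and 4 cover under 6 kb at its 3′ end. The wide group holds 3 of the 4 transcripts that were at 0 in controls. The 5 of wide span made up 69.8% of *din-1* FPKM in T1, 61.3% in T2, and 71.1% in T3, against 50.8% in C1, 56.9% in C2, and 45.4% in C3. These shares were higher in every VK2 library than in every control of its table. Since 3 of these 5 transcripts were at 0 in controls and present in VK2, the separation partly restates that pattern. The shares without them were not examined.

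Across the 19967 transcripts tested, limma called 0 (0%) at an adjusted p below 0.05 and 652 (3.27%) at an unadjusted one, and its smallest adjusted p was 0.261. F07A11.6b and F07A11.6e each had an adjusted p of 0.346, and over the alternatives their adjusted p ran between 0.251 and 1.00. They passed the filter of a mean FPKM of at least 1 through the VK2 libraries alone and so had to differ, while F07A11.6d.2 and F07A11.6f did not pass it. Their fitted differences, 2.04 and 2.06, depend on the pseudocount, at 5.01 and 5.02 with 0.1 and 0.70 and 0.71 with 5, and no fold is given against controls listed at 0. F07A11.6a and F07A11.6b span the same 18974 bases, from 11614636 to 11633609, so reads that overlapping transcripts share were divided between them by the authors' software. An exact 0 can be the outcome of that division, and the part of this step in the pattern was not tested.

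The 4 transcripts of *daf-12* did not move together, and the split of the gene between them differed between T2 and T3. F11A1.3a and F11A1.3c span 22466 bases, while F11A1.3b and F11A1.3d start within the gene and span 6074 and 7531 bases. F11A1.3b, the most abundant of the 4 in T1, T2, C2, and C3 but not in T3 or C1, had 3.77 FPKM in T1 against 0.758 in C1, and 12.3 in T2 and 1.15 in T3 against 12.01 in C2 and 20.8 in C3. T3 was far below T2. F11A1.3d moved the other way between these libraries, with 1.51 FPKM in T1 against 2.49 in C1, and 5.87 in T2 and 12.8 in T3 against 2.33 in C2 and 3.63 in C3. Its level was above both controls in both VK2 libraries of the second table and below the control in the first.

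The arrangement of every VK2 library above every control of its table, found for 6.83% of genes tested, was not counted over all transcripts. F11A1.3c, which did not pass the test, was the 1 *daf-12* transcript that showed it. It had 3.09 FPKM in T1 against 1.91 in C1, and 4.59 in T2 and 2.93 in T3 against 1.99 in C2 and 2.55 in C3 (difference 0.51, SE 0.24, 95% interval -0.08 to 1.11). F11A1.3a had 3.48 FPKM in T1 against 1.71 in C1, and 3.66 in T2 and 0.596 in T3 against 0.604 in C2 and 0.499 in C3, so that T3 was level with the controls (difference 0.78, SE 0.43, 95% interval -0.29 to 1.86). The differences of F11A1.3b and F11A1.3d were -0.62 (SE 0.94) and 0.71 (SE 0.49), and that of F11A1.3b was 0.42 without T3.

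As a share of *daf-12* FPKM, F11A1.3b was 31.9% in T1 against 11.02% in C1, and 46.5% in T2 and 6.62% in T3 against 70.9% in C2 and 75.7% in C3. The direction in the second table was opposite to that in the first. F11A1.3d was 12.7% in T1 against 36.3% in C1, and 22.3% in T2 and 73.1% in T3 against 13.8% in C2 and 13.2% in C3. In an exact permutation test within tables, two-sided, the p of the 4 shares was between 0.333 and 0.667 before adjustment, and 12 arrangements cannot give less than 0.167. A difference in the makeup of *daf-12* was not shown with these libraries.

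*nhr-8* was listed through 2 transcripts that cover almost the same bases, and 1 of them was at 0 in a library of each group. F33D4.1b had 5.14 FPKM in T1 against 0 in C1, and 3.14 in T2 and 0 in T3 against 2.99 in C2 and 2.51 in C3. F33D4.1a had 6.73 in T1 against 3.57 in C1, and 3.83 in T2 and 7.30 in T3 against 4.71 in C2 and 4.81 in C3. Where F33D4.1b was at 0 in the second table, F33D4.1a was at its highest, and the sum of the pair stayed close to that of the other libraries. The fitted differences were 0.34 (SE 0.29) for F33D4.1a and 0.29 (SE 0.90) for F33D4.1b.

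**Figure D4:**
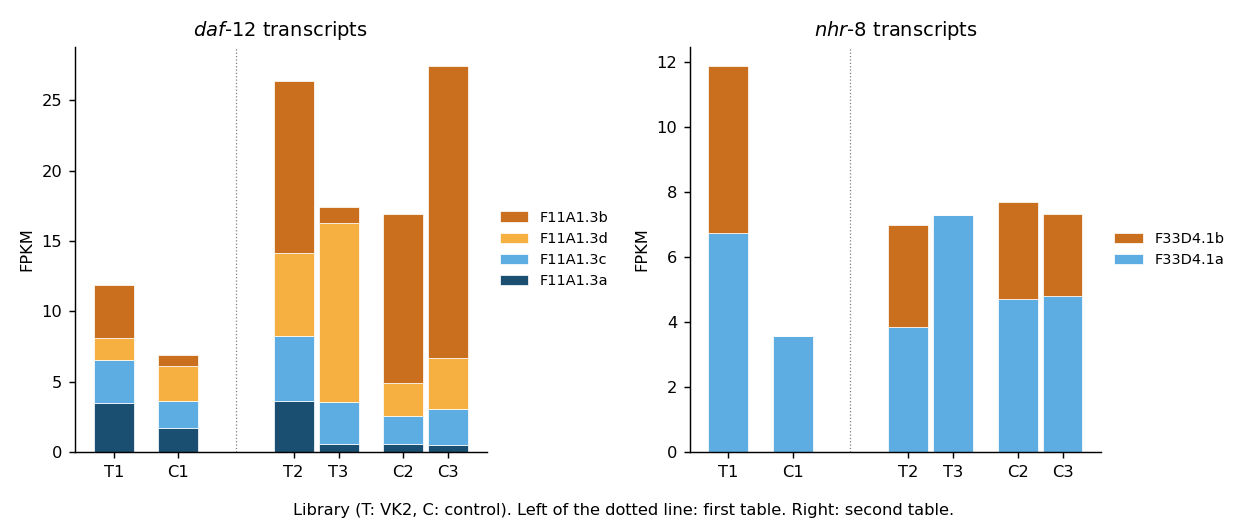
FPKM of the *daf-12* transcripts (left panel) and the *nhr-8* transcripts (right panel), stacked, in the VK2 libraries (T) and the control libraries (C), with the first table left of the dotted line in each panel. F11A1.3b is 1.15 FPKM in T3 but 12.3 in T2, and F33D4.1b is absent from the bars of T3 and C1.

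The genes around the pathway were counted in 8 lists, of which 49 genes could be tested. Of these, 32 were above 0 and 17 below, with a median of 0.07, against 0.02 over all genes. Limma called 0 of the 49 at an adjusted p below 0.05 and 2 at an unadjusted one, against 3.57% of all genes. Every VK2 library was above every control of its table for 7 of them, against 6.83% of all genes, and below for 3, against 5.98%.

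Both genes with an unadjusted p below 0.05 were in the list of sterol supply and transport, *scl-12* and *scl-13*. They encode secreted proteins of the CAP family, members of which bind sterols in budding yeast. *scl-13* (WBGene00019179) had 14.3 FPKM in T1 against 2.51 in C1, and 37.5 in T2 and 31.0 in T3 against 4.99 in C2 and 0.616 in C3. *scl-12* (WBGene00019178) had 21.3 in T1 against 9.50 in C1, and 59.3 in T2 and 46.0 in T3 against 8.52 in C2 and 1.75 in C3. For both, every VK2 library was above every control of its table.

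The ratio of FPKM was 5.70 for *scl-13* and 2.24 for *scl-12* in the first table, and between the sums of the second table it was 12.2 and 10.2. The fitted differences were 3.04 (SE 0.51, 95% interval 1.83 to 4.25) for *scl-13* and 2.61 (SE 0.59, 95% interval 1.21 to 4.02) for *scl-12*. Both had an adjusted p of 1.00 from limma. Without C3, where both were lowest, the difference of *scl-13* was 2.37 and passed the test with an adjusted p of 0.0201, while that of *scl-12* was 1.88 and did not, with an adjusted p of 0.394 from limma. The ratio of the mean of T2 and T3 to C2 alone was 6.86 for *scl-13* and 6.18 for *scl-12*. The genes are neighbours on opposite strands of chromosome V, from 3810785 to 3811641 and from 3812591 to 3813437, and belong to 1 gene family, so that reads the copies share could be divided between them.

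**Figure D5:**
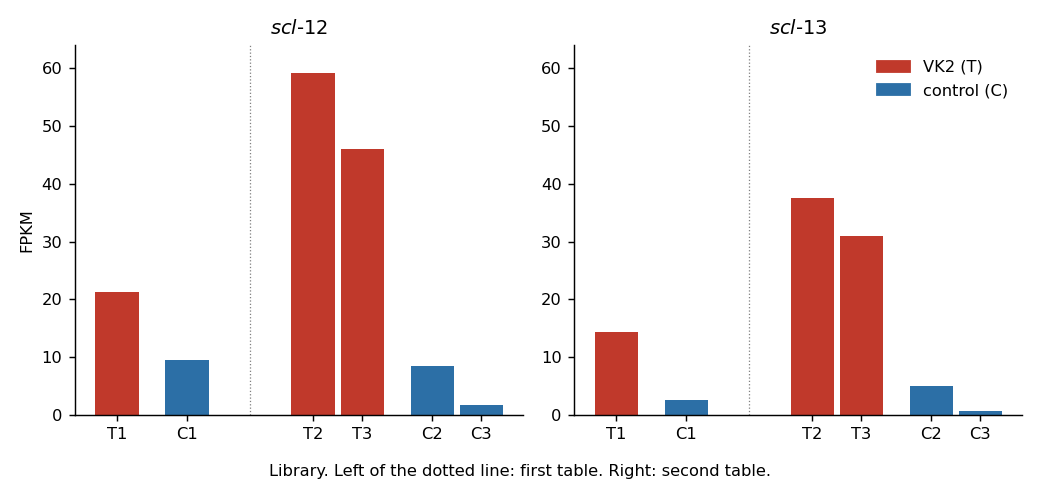
FPKM of *scl-12* (left panel) and *scl-13* (right panel) in the VK2 libraries (T, red) and the control libraries (C, blue), with the first table left of the dotted line. The lower VK2 bar of the second table (T3, 46.0 and 31.0 FPKM) is above the higher control bar (C2, 8.52 and 4.99 FPKM) of the same gene, and T1 is above C1.

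Sperm markers summed to 205 FPKM in T1 against 127 in C1, and to 120 in T2 and 115.1 in T3 against 115.0 in C2 and 72.3 in C3, so that T3 and C2 were level and C3 was the low library of the second table. Of the 6 tested, 5 were above 0, against 55.1% of all genes, and the median was 0.51. Limma called 0 of the 6 at an adjusted p below 0.05 and 3 at an unadjusted one, against 3.57% of all genes. The intestine markers summed to 5150 FPKM in T1 against 4531 in C1, and 3548 in T2 and 4226 in T3 against 4460 in C2 and 2590 in C3. The low sum of C3 was mostly *vit-2*, at 291 FPKM against 1560 to 2047 in the others of its table. The marker *asp-1* was 1530 FPKM in C3 against 1267 to 1586. Of the other intestine markers, *cpr-6* was also lowest in C3, while *act-5* was highest there. The part of these tissues in the *scl-12* and *scl-13* values was not tested.

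Of the 14 genes of sterol supply and transport, all of them tested, 9 were above 0 and 5 below, and *scl-12* and *scl-13* alone reached 1.5 times. The third largest difference was that of *strm-1*, the sterol methyltransferase that turns sterols away from dafachronic acid, at -0.43 (SE 0.29). It had 5.80 FPKM in T1 against 8.60 in C1, and 3.96 in T2 and 5.35 in T3 against 4.15 in C2 and 9.48 in C3. T3 lay between the controls. Among relatives of the synthesis enzymes, 2 of 7 were tested and both were at or above 0, the larger being *let-767*, a dehydrogenase of steroids and fatty acyl chains, at 0.29. *nhr-48*, the third receptor of the DAF-12 group, was at 0.07.

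Upstream inputs to *daf-9* and *daf-12* showed small fitted differences, with intervals that reach to larger ones. In the TGF-beta pathway that controls dauer entry, 3 of the 7 genes were above 0 and 4 below. The largest differences were -0.23 for *daf-5*, a Ski-related cofactor, -0.12 for *daf-7*, the ligand, and 0.10 for *daf-4*, a receptor. Among the guanylyl cyclase and insulin inputs, 6 of 9 were tested, with 3 above and 3 below 0. The insulin-like peptide gene *ins-6* was at -0.37 and *daf-16*, the FOXO factor, at 0.17. None of the 6 reached 1.5 times.

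Of 12 heterochronic genes, which act with *daf-12* in larval timing, 7 were tested, with 4 above and 3 below 0. The largest differences were -0.41 for *lin-42*, the Period homolog, 0.39 for *hbl-1*, a hunchback homolog, and -0.38 for *lin-29*, a zinc finger factor of the adult switch. The microRNA genes of this list were not listed in both tables. Of 11 genes that act with *daf-12* in the longevity of worms without a germline, 9 were above 0 and 2 below, led by the lysosomal lipase *lipl-4* (0.46), the desaturase *fat-6* (0.43), and the fatty acyl reductase *fard-1* (0.27). Without T1 or C1 these were 0.075 for *lipl-4* and 0.10 for *fard-1*, and without C3 *fat-6* was 0.064. The study chose *lipl-4*, *fat-6*, and *fard-1*, as well as *daf-12*, on these samples, so their direction here is not independent evidence. The paper also reports these genes as up-regulated by real-time PCR, and it tested the effect of VK2 on lifespan in *daf-12* mutants and *lipl-4* RNAi worms. Those experiments were not examined here. Of the 5 genes in the XXX cell list, *eak-7*, a conserved regulator in insulin signalling, was the only 1 tested, at 0.15. Its FPKM is that of whole worms, 82.3 in T1 and 80.5 in C1, so the value cannot be assigned to the XXX cells. The rest of that list was not listed in both tables.

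Among 7169 genes with a symbol, those whose profile over the 6 libraries was most like that of *daf-12* were *fbxa-27*, an F-box gene, *col-60*, a cuticle collagen, and *ins-24*, an insulin-like peptide. Likeness was the root mean square difference of log2(FPKM + 1) after each gene was centred on its table mean. It was 0.03 for *fbxa-27*, 0.07 for *col-60*, and 0.07 for *ins-24*, against a median of 0.39 over all these genes. Between *daf-12* and the other genes of the pathway it ran from 0.26 for *dhs-16* to 0.43 for *daf-9*, around that median. The genes named above were picked as the nearest, so their smaller values follow from that choice.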

How the data were processed

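Reads were mapped by the authors to WBcel235 with Hisat2, and FPKM came from Ballgown. The submitters' processing notes name cutadapt, HISAT2 2.1.0, StringTie, and STAR 2.5.2b. The deposited values are FPKM per transcript, in a table of 24354 transcripts for T1 and C1 and a table of 25370 for the other 4 libraries. In 49 rows of the first table the cells run together and were separated by pattern.

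For each gene the FPKM of its transcripts was added up. Genes were tested where both tables listed them and their mean over the 6 libraries reached an FPKM of 1. Limma 3.58.1 (R 4.3.3, statmod 1.5.0) was used, two-sided, on log2(FPKM + 1), with VK2 and the table as terms, the intensity trend on, and Benjamini-Hochberg adjustment. The code was tested on simulated data. The shares of *daf-12* transcripts were compared by an exact permutation test within tables. Low FPKM values fell on no common step, so read counts were not recovered. Gene positions are from Ensembl release 115 and those of transcripts from the tables, which use an older annotation of the same build. Python 3.11.15, pandas 2.3.3, numpy 2.4.6, and matplotlib 3.10.9 were also used.

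The genes and lists were chosen with earlier results of these data known. The rule named all 7 genes, the 3 largest differences of each pathway list at most, and the 3 genes most like *daf-12*. The values of 1 gene of the insulin list are not reported here. In the marker lists, the median difference was 0.19 for intestine, -0.39 for hypodermis, 0.03 for body wall muscle, 0.16 for pharynx, -0.04 for neurons, 0.21 for germline and oocytes, 0.18 for embryos, and 0.01 for somatic gonad and spermatheca.

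Results were recomputed with another pseudocount (0.1 or 5), filter (none, or a mean of 5), or scaling (upper quartile or quantile), without the table term, in the second table alone, and with a replicate block. Further alternatives were the trend off, robust on, an unmoderated test, each library left out, transcripts in both tables only, and the most abundant transcript in place of the sum. Replicate numbers come from the labels. Deviations from the group means correlated across genes at a Pearson's r of 0.881 for T1 and C1, 0.556 for T2 and C2, and 0.543 for T3 and C3. They also correlated at 0.608 for T2 and C3 and 0.613 for T3 and C2. The group means were taken over both tables, so these deviations include the difference between the tables. The r of libraries in the same table therefore does not measure pairing by number. No sequences were printed.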

Additional observations from a re-analysis of the deposited data

How the results depend on the processing

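The number of genes called at an adjusted p below 0.05 was 0 under each alternative other than leave-one-out, where it ranged from 0 to 2, with 1 without T2 (*ctb-1*) and 2 without C3 (*col-108* and *scl-13*). Transcripts called ranged from 0 to 1 when a library was left out, with 1 without T2 (MTCE.21 of *ctb-1*), and 1 gene (*nduo-6*) passed the interaction with a pseudocount of 5. Pathway genes at 1.5 times or more ranged from 0 to 2 over the libraries left out, with *nhr-8* at 0.62 without T2, 0.59 without T3, and 0.62 without C2, and *daf-9* at -0.75 without C2. With the most abundant transcript in place of the sum there were 2, *daf-12* at -0.62 and *din-1* at -1.02. The median of the 6 genes ran from -0.14 to 0.09 over the libraries left out. The cause of these changes was not tested.

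The following differences changed sign. With the second table alone, or without T1 or C1, they were -0.0071 for *daf-12*, -0.065 for *nhr-8*, -0.052 for *nhr-48*, and -0.88 for F33D4.1b. Without T3 they were 0.042 for *dhs-16*, 0.041 for *daf-7*, and 0.42 for F11A1.3b. Without C3 they were 0.16 for *dhs-16*, 0.016 for *daf-9*, 0.26 for *daf-7*, -0.072 for *hbl-1*, 0.010 for *lin-29*, and -0.028 for *eak-7*. With the most abundant transcript they were -0.62 for *daf-12*, 0.079 for *lin-29* and -1.93 for *fat-6*. None of these passed the test in any of the alternatives run. Over the libraries left out, the other end of the range was 0.49 for *daf-12*, 0.62 for *nhr-8*, -0.37 for *dhs-16*, -0.75 for *daf-9*, 0.15 for *nhr-48*, -0.37 for *daf-7*, 0.76 for *hbl-1*, -0.66 for *lin-29*, 0.30 for *eak-7*, -1.65 for F11A1.3b, and 1.20 for F33D4.1b.

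With the replicate block, 0 genes and 0 transcripts were called, 588 genes had an unadjusted p below 0.05, and no call of a pathway gene changed. Libraries of other numbers correlated as highly as those of the same number in the second table. T2 minus T3 correlated with C2 minus C3 at -0.111, and a replicate block with the numbers crossed, added after the data were seen, called 0 genes and had 616 at an unadjusted p below 0.05. With 3 libraries a group and unknown depth, a change within a gene's own interval is not excluded. On the scale of FPKM + 1, the intervals reach down to a fold of 0.424 for *daf-9* and up to 2.33 for *nhr-8*. They differ in width, and that of *din-1* runs from 0.704 to 1.09.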
